A study of Mus musculus with 24 samples.

Results

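The enzymes of the methionine cycle and of transsulfuration were represented by 10 genes, Mat1a, Mat2a, Gnmt, Ahcy, Bhmt, Bhmt2, Mtr, Cbs, Cth and Nnmt. They were taken by symbol from the 21894 genes of the deposited expression table, and each symbol matched a single gene. The study sequenced total RNA of whole liver and whole brain of male mice of the inbred strain C57BL/6J. The mice ate normal chow until 8 weeks of age and then, for 5 weeks, a diet whose selenium supplement was 0 ppm (none added), 0.1 ppm, 0.4 ppm, or else 2.25 ppm, so all 8 groups share strain, sex, age and feeding period and differ in tissue and dose. Each group had 3 libraries, 24 in all, here called a, b and c as their columns stand in the table. Reads on genes numbered 11.5 to 18.4 M per liver library and 12.9 to 17.8 M per brain library (M, 10 to the power 6). Values are the authors' normalized reads, which are reads divided by 1 factor per library, and changes are differences of log2(value + 1) with their standard error (SE).

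Methionine adenosyltransferase joins methionine to ATP and makes S-adenosylmethionine (SAM), the methyl donor of most methylation reactions. Methyltransferases turn SAM into S-adenosylhomocysteine, which is split into homocysteine and adenosine. Homocysteine is either methylated back to methionine, with betaine or methylfolate as the methyl source, or passed through cystathionine to cysteine, the transsulfuration route that feeds glutathione and taurine synthesis. Hepatocytes carry most of the body's methionine turnover. Selenomethionine, the selenium analogue of methionine, can enter the same reactions, which is one link between these enzymes and dietary selenium.

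In liver, 6 of the 10 enzymes were lower and 1 was higher at 0 ppm than over the supplemented diets of 0.1, 0.4 and 2.25 ppm. Mat1a and Ahcy, which make SAM and clear its by-product, changed most among the 7, and Gnmt, Bhmt, Bhmt2 and Cth were lower by smaller amounts. Cbs, the entry enzyme of transsulfuration, was the member that was higher. Mat2a, Mtr and Nnmt did not pass the test. A gene passed at an adjusted p under 0.05 by limma, with Benjamini-Hochberg adjustment over the 18945 genes tested in liver. By this rule 6.61% of all genes differed, 4.41% lower and 2.20% higher. The median log2 change of the 10 members was -0.63, against 0.00 over all genes. Since the members were chosen with earlier results of these data known, the counts and the median are descriptions.

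**Figure D1:**
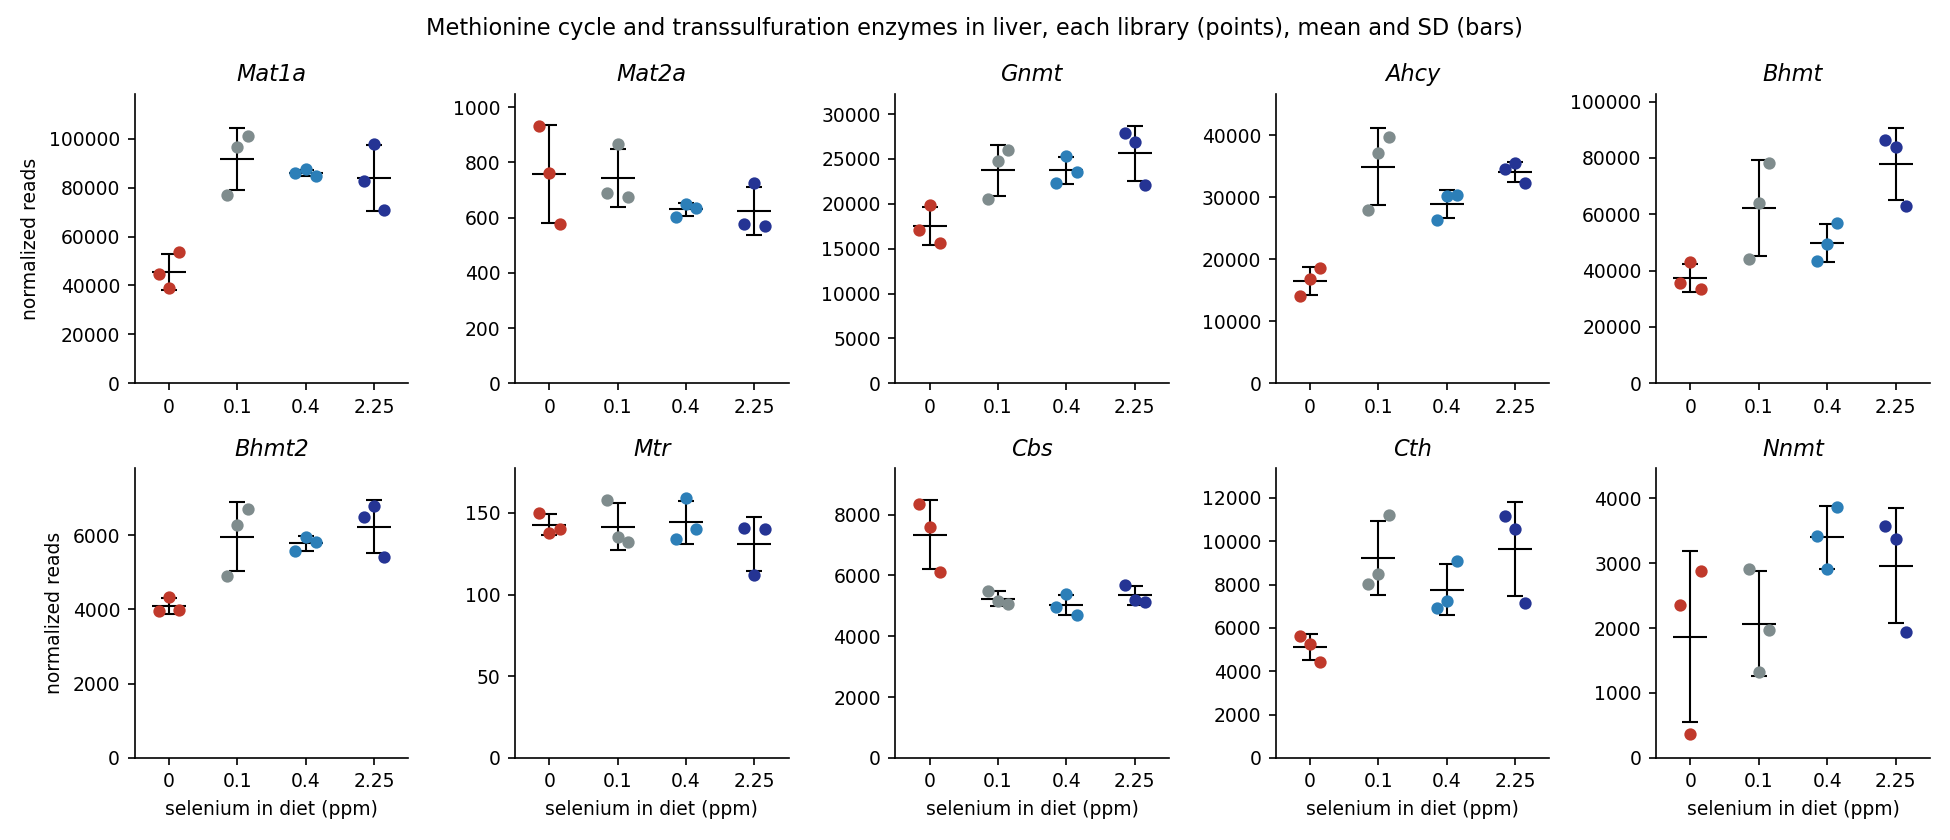
Normalized reads of the 10 enzymes in each liver library (points) by selenium in the diet in ppm, with the mean and SD of the 3 libraries (bars). The 3 libraries at 0 ppm lie below the 9 others for Mat1a, Gnmt, Ahcy, Bhmt, Bhmt2 and Cth, and above them for Cbs. For Mat2a, Mtr and Nnmt they overlap the 9 others in range.

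Mat1a encodes the methionine adenosyltransferase of adult hepatocytes. It had 44781, 38858 and 53498 normalized reads in the libraries at 0 ppm, 77203, 96693 and 101211 at 0.1 ppm, 85838, 87516 and 84711 at 0.4 ppm, and 82905, 97850 and 70996 at 2.25 ppm. The 0 ppm libraries were all below the other 9, which did not order by dose. The log2 change of Mat1a at 0 ppm against the supplemented diets was -0.94 (SE 0.13, limma adjusted p = 0.000696), with means of 45712 ± 7365 (SD, n = 3) at 0 ppm and 87214 ± 9931 (n = 9) on the supplemented diets. Mat2a encodes the catalytic subunit that serves most other tissues and dividing hepatocytes. Its values were 932, 760 and 577 normalized reads at 0 ppm, 689, 865 and 675 at 0.1 ppm, 603, 649 and 636 at 0.4 ppm, and 575, 724 and 570 at 2.25 ppm. These groups overlapped, and the log2 change of 0.17 (SE 0.12) did not pass (limma adjusted p = 0.505).

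Gnmt, glycine N-methyltransferase, uses up SAM by methylating glycine and is regarded as a buffer of the ratio of SAM to S-adenosylhomocysteine in liver. It had 17126, 19835 and 15626 normalized reads at 0 ppm, 20530, 24796 and 25946 at 0.1 ppm, 22286, 25301 and 23574 at 0.4 ppm, and 27880, 26868 and 22122 at 2.25 ppm. The highest 0 ppm library and the lowest library at 0.1 ppm lay close together without overlapping. The log2 change of Gnmt at 0 ppm was -0.48 (SE 0.10, limma adjusted p = 0.0112). Nnmt methylates nicotinamide and is the other SAM-using member. It ranged from 371 to 2883 normalized reads at 0 ppm and from 1319 to 3873 on the supplemented diets, with library b at 0 ppm, at 371, below all others. Its log2 change of -0.97 (SE 0.46) did not pass (limma adjusted p = 0.255).

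Ahcy, adenosylhomocysteinase, splits S-adenosylhomocysteine, which otherwise inhibits methyltransferases. It had 14015, 16831 and 18629 normalized reads at 0 ppm, 27897, 37247 and 39683 at 0.1 ppm, 26309, 30151 and 30427 at 0.4 ppm, and 34508, 35575 and 32403 at 2.25 ppm. The gap between the highest 0 ppm library and the lowest supplemented one was wider than the range of the 3 libraries at 0 ppm. The log2 change was -0.99 (SE 0.11, limma adjusted p = 0.000227), from means of 16492 ± 2325 (SD, n = 3) at 0 ppm and 32689 ± 4425 (n = 9) on the supplemented diets.

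Of the remethylating enzymes, the pair that works without folate was lower at 0 ppm. Bhmt, which moves a methyl group from betaine to homocysteine, had 35697, 43010 and 33309 normalized reads at 0 ppm, 44167, 64105 and 78348 at 0.1 ppm, 43424, 49473 and 56768 at 0.4 ppm, and 86469, 83762 and 62980 at 2.25 ppm. The spread within the supplemented groups was wide, and the 0 ppm library b came within reach of the lowest libraries at 0.1 and 0.4 ppm. The log2 change of Bhmt was -0.73 (SE 0.16, limma adjusted p = 0.0147). Bhmt2, a neighbouring relative of Bhmt that uses S-methylmethionine, had 3968, 4329 and 3972 normalized reads at 0 ppm, 4909, 6281 and 6692 at 0.1 ppm, 5566, 5947 and 5829 at 0.4 ppm, and 6481, 6784 and 5418 at 2.25 ppm. Its 0 ppm libraries were close to one another and all below the rest, with a log2 change of -0.54 (SE 0.09, limma adjusted p = 0.00266). Mtr, the cobalamin-dependent methionine synthase that takes its methyl group from folate, had 138 to 150 normalized reads at 0 ppm and 112 to 159 on the supplemented diets. Its log2 change was 0.04 (SE 0.11, limma adjusted p = 0.884).

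The members of the transsulfuration route moved in opposite directions. Cbs, cystathionine beta-synthase, had 8338, 7577 and 6108 normalized reads at 0 ppm, 5502, 5171 and 5048 at 0.1 ppm, 4973, 5374 and 4710 at 0.4 ppm, and 5699, 5202 and 5130 at 2.25 ppm. All 3 libraries at 0 ppm were above the 9 others, which lay in a narrow range, and the log2 change was 0.49 (SE 0.08, limma adjusted p = 0.00312). Cth, cystathionine gamma-lyase, which releases cysteine from cystathionine, had 5631, 5272 and 4444 normalized reads at 0 ppm, 8038, 8483 and 11190 at 0.1 ppm, 6936, 7243 and 9102 at 0.4 ppm, and 11184, 10541 and 7158 at 2.25 ppm. All 3 libraries at 0 ppm were below the others, with a log2 change of -0.78 (SE 0.14, limma adjusted p = 0.00416).

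Counted over the libraries themselves, 6 members had every 0 ppm library below all 9 others, as had 3.49% of the liver genes tested, and Cbs had every one above, as had 1.64%. The calls of Gnmt and Bhmt were lost without library a at 0 ppm, where their limma adjusted p was 0.0601 and 0.0791. Library a held the middle of the 3 values at 0 ppm for both genes. Over the 12 fits that left out 1 library, the log2 change was -0.57 to -0.4 for Gnmt and -0.83 to -0.65 for Bhmt. Both calls were also lost when limma had no mean-variance trend (0.0576 and 0.069). With 2 clock components added to the fit none of the 7 was called (adjusted p = 1 for each), as described with the clock genes further on. Nothing in the labels says whether the 3 libraries of a group came from 3 animals, so a p-value sets a change against the spread of these libraries only, and that spread may be technical. In whole tissue, fewer cells of a type and less RNA per cell cannot be told apart.

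**Figure D2:**
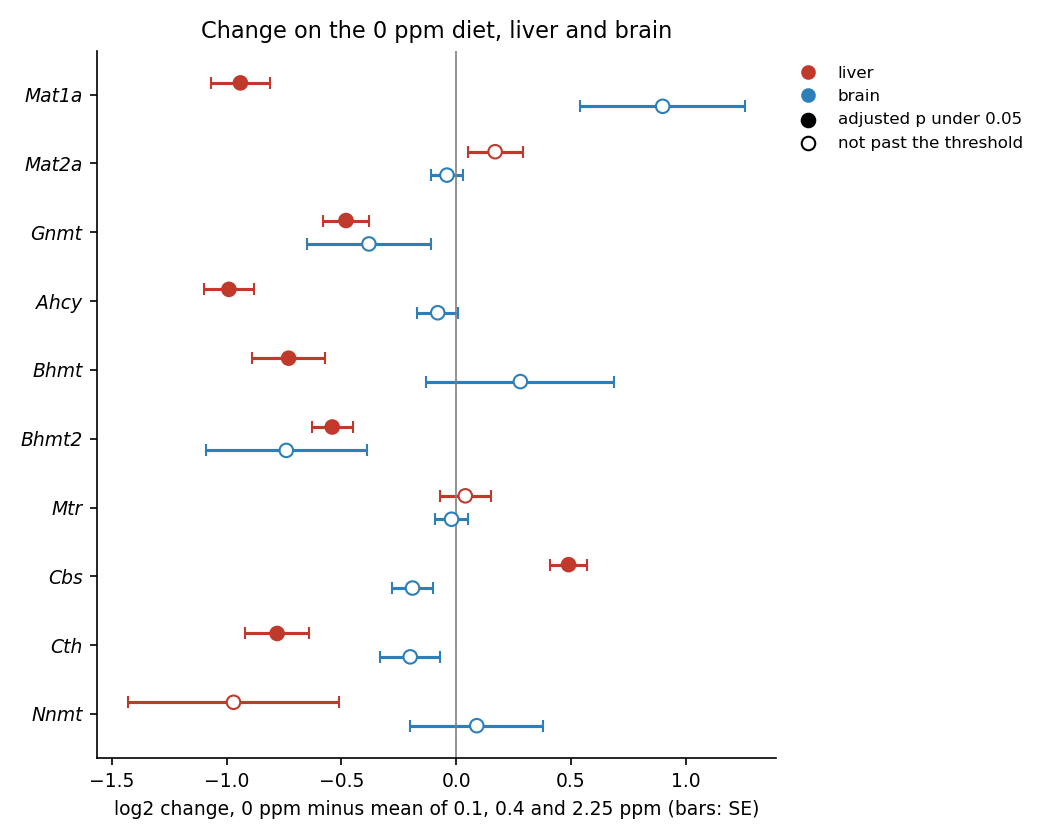
Log2 change (log2 of normalized reads plus 1) at 0 ppm minus the mean of 0.1, 0.4 and 2.25 ppm for each enzyme in liver and brain, with the SE as bars. Filled points passed the test, which are 7 members in liver and none in brain, with Ahcy at -0.99 in liver and -0.08 in brain.

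The ratio of paired members within a library does not depend on the library's scaling and is given as a description. The ratio of Cth to Cbs normalized reads was 0.675 to 0.728 in the 3 libraries at 0 ppm and 1.35 to 2.22 in the 9 others. These ratios compare diets and are not per length. Per kb of exons, the level of Cth was above that of Cbs in every liver library, at 1592 to 2018 against 816 to 1114 normalized reads per kb at 0 ppm. The lengths used were all annotated exons merged, 7.49 kb for Cbs and 2.79 kb for Cth. At 0 ppm, where Cbs had more reads, this order rests on those lengths. Mat2a reads were 1.08% to 2.08% of Mat1a reads at 0 ppm and 0.667% to 0.894% on the supplemented diets, again without overlap. Of the pair, Mat1a passed the test and Mat2a did not. The ratio of Bhmt2 to Bhmt was 0.101 to 0.119 at 0 ppm, within the 0.0749 to 0.128 of the other libraries. At 2.25 ppm this ratio was 0.0749 to 0.086, below all libraries at 0 ppm and at 0.4 ppm (0.103 to 0.128), but it overlapped the 0.0854 to 0.111 at 0.1 ppm. The ratio of Nnmt to Gnmt was 0.0187 to 0.185 at 0 ppm and 0.0532 to 0.164 on the supplemented diets, with overlap.

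**Figure D3:**
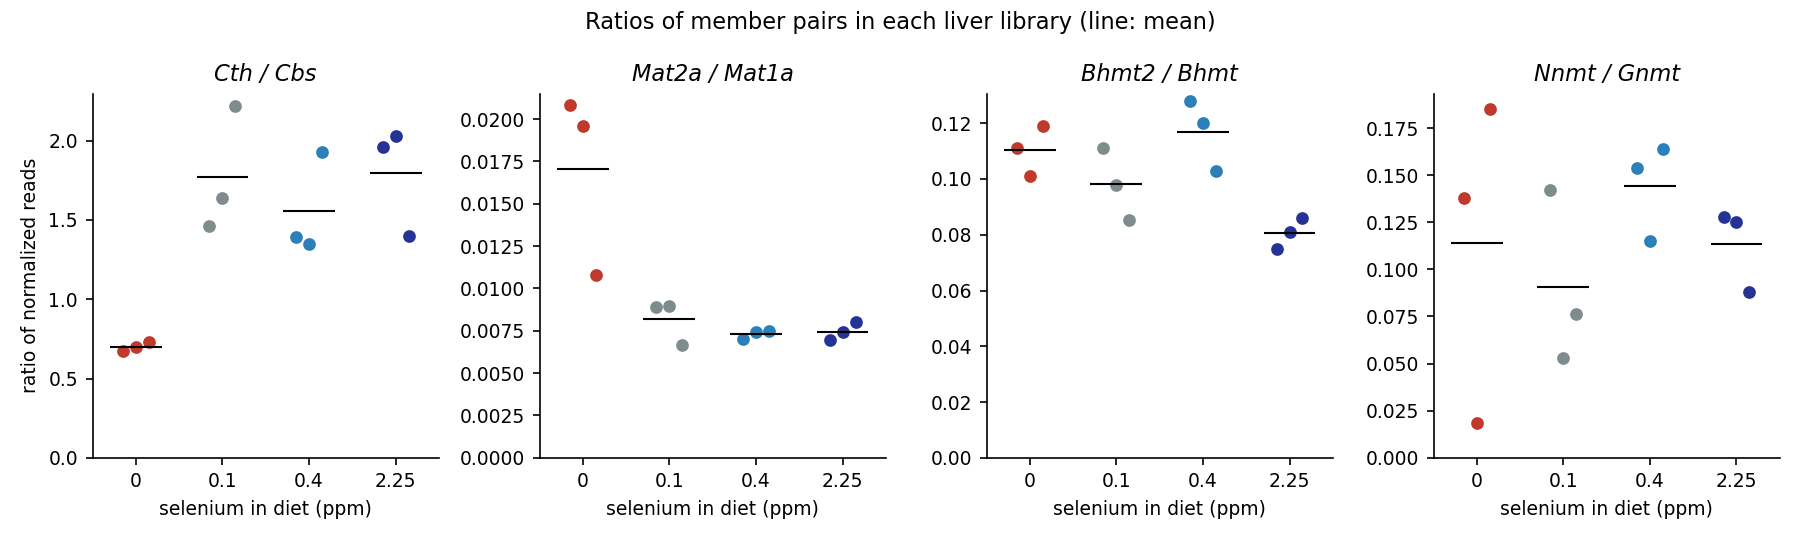
Ratio of normalized reads of 4 pairs of enzymes in each liver library (points) by selenium in the diet in ppm, with the mean as a line. Reads are not divided by gene length. Cth to Cbs is 0.675 to 0.728 in the 3 libraries at 0 ppm and 1.35 to 2.22 in the 9 others. For Bhmt2 to Bhmt and Nnmt to Gnmt the 0 ppm libraries overlap the 9 others. Bhmt2 to Bhmt at 2.25 ppm is 0.0749 to 0.086, below all libraries at 0 and 0.4 ppm but overlapping those at 0.1 ppm (0.0854 to 0.111).

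In GRCm38, by the GENCODE vM21 annotation, Ahcy lies on chromosome 2 from 155059310 to 155074497, Gnmt on chromosome 17 from 46725664 to 46729168 and Cbs on chromosome 17 from 31608894 to 31637238, all on the minus strand. Bhmt, on chromosome 13 from 93616675 to 93637961, and Bhmt2, from 93655720 to 93674302, are neighbours on the minus strand. Mat1a, a plus-strand gene, spans 41105035 to 41124412 of chromosome 14, and Cth, a minus-strand gene, spans 157894248 to 157925077 of chromosome 3. Nnmt is at 48591877 to 48605153 of chromosome 9, Mat2a at 72432799 to 72439558 of chromosome 6 and Mtr at 12182712 to 12258113 of chromosome 13, all on the minus strand. The table identifies Ahcy as ENSMUSG00000027597.15, Mat1a as ENSMUSG00000037798.6, Cbs as ENSMUSG00000024039.14 and Cth as ENSMUSG00000028179.12. All 10 are protein-coding genes, and a value covers the whole gene. RefSeq promoter sequences (GRCm38.p6), 250 bases before to 50 bases after the transcription start, matched 7 of the 10 members, and those of Mat1a, Cth and Nnmt are named only. Those of Ahcy, Gnmt and Bhmt, which were lower at 0 ppm, and of Cbs, which was higher, are shown 5′ to 3′ on the gene's strand so that members of opposite direction can be set side by side. Most of the Bhmt window, 93637709 to 93638008, lies inside the gene as GENCODE annotates it, with its 5′ end at 93637961. Capitals mark the motifs CCAAT (NF-Y), GGGCGG (Sp1) and CACGTG (E-box) on either strand.
Ahcy, chr2:155074448-155074747: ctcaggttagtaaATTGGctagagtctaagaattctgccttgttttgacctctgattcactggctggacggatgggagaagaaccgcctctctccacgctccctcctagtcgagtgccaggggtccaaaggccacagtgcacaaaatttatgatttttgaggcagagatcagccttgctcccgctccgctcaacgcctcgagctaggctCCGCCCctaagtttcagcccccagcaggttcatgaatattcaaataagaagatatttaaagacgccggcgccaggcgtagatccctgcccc
Gnmt, chr17:46729116-46729415: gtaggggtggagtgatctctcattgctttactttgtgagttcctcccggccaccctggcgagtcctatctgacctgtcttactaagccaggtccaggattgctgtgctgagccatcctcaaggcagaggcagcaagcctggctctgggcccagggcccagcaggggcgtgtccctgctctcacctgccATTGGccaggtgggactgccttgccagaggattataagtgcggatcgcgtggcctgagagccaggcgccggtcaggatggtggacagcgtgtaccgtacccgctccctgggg
Bhmt, chr13:93637709-93638008: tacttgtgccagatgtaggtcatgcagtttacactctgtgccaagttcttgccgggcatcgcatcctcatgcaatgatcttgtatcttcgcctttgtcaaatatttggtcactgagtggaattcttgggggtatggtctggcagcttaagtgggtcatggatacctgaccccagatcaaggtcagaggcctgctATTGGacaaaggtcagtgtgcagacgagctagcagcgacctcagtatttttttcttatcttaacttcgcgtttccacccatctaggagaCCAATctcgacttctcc
Cbs, chr17:31637156-31637455: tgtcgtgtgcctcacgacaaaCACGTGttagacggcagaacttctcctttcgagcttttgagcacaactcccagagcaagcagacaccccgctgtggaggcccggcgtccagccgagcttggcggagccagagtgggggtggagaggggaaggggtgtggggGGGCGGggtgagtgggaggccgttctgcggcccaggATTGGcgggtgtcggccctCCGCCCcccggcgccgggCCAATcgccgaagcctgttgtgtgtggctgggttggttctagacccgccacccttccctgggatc

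On either strand, CCAAT was present in the promoters of Ahcy, Bhmt, Cbs, Gnmt, Mat2a and Mtr, 6 of the 7, against 37.4% of 32817 mouse promoters of the same length. Both matches in Bhmt, at bases -56 and 34 from the RefSeq start, lie inside the GENCODE gene. GGGCGG was in Ahcy, Bhmt2, Cbs, Mat2a and Mtr, 5 of the 7, against 35.6%. CACGTG was found in Cbs alone, beginning at base -229 from the start, against 7.15% of promoters, and TATAAA in Mat2a alone, against 13.6%. TTATGNAA (a D-box spelling), TGATGNAA (the amino acid response core) and TGACNNNGC (the antioxidant response core) were in none of the 7, against 3.39%, 3.97% and 12.4%. No motif overlapped another in these windows except a pair of GGGCGG matches on the reverse strand of Mat2a, which share bases. CCAAT was thus present in the promoters of both lower and higher members, as well as of Mat2a and Mtr, which did not pass.

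Against 0.1 ppm alone, the lowest supplemented dose, the same 7 members were called in liver at 0 ppm, where 6.13% of all genes were. Ahcy changed by -1.08 (SE 0.14, limma adjusted p = 0.000563) and Mat1a by -1.01 (SE 0.16, 0.00201) on the log2 scale. Cth changed by -0.84 (SE 0.17, limma adjusted p = 0.00992), Bhmt2 by -0.53 (SE 0.11, 0.0114) and Cbs by 0.48 (SE 0.10, 0.0133). Bhmt at -0.71 (SE 0.19, limma adjusted p = 0.0474) and Gnmt at -0.44 (SE 0.12, 0.0491) lay at the threshold. This comparison shares the 0 ppm libraries with the one above. The count of 7 was 4 without 0 ppm library a, 3 without 0.1 ppm library b or c, 3 with only the 6 libraries compared, 2 with no mean-variance trend and 0 with the clock components.

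Among the supplemented diets no member passed the test. At 0.4 against 0.1 ppm none of the 10 was called by limma or by edgeR and none had an unadjusted p under 0.05, while 1.49% of all genes were called. Log2 changes at 0.4 ppm ran from -0.29 (SE 0.19) for Bhmt to 0.78 (SE 0.56) for Nnmt. At 2.25 against 0.1 ppm again none was called by either tool or had an unadjusted p under 0.05, although 7.85% of liver genes were called. There Bhmt had means of 77737 ± 12852 and 62207 ± 17169 normalized reads (SD, n = 3 each) at 2.25 and 0.1 ppm, a log2 change of 0.35 (SE 0.19, limma adjusted p = 0.335). For Ahcy the change at 2.25 ppm was -0.02 (SE 0.14) and for Mat1a -0.13 (SE 0.16), with all SE but that of Nnmt at 0.19 or less. Tested for any difference among the 4 diets, 7 members were called in liver beside 10.9% of all genes, Ahcy with the smallest p (adjusted p = 0.000735, limma). Gnmt lost this call in 6 of the 12 fits that left out 1 library (limma adjusted p up to 0.106), and Cbs in 1 (0.0515).

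In brain, most of these enzymes were scarce, and none was called in any comparison. The share of brain genes called was 0.0189% for 0 ppm against the supplemented diets, 0.0284% for 0 against 0.1 ppm, 0.00947% for 0.4 against 0.1 ppm, 0.435% for 2.25 against 0.1 ppm and 0.0189% for any difference, of 21127 tested with limma. Members with an unadjusted p under 0.05, a looser rule than that of these shares, numbered 1, 1, 1, 4 and 3 in the same order. The share of all brain genes under the looser rule is not given here, so these numbers are descriptions. No member was called by edgeR. No member had its 0 ppm brain libraries all below the other 9, as 0.535% of brain genes had, or all above, as 0.369% had.

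Ahcy had 221, 180 and 191 normalized reads in brain at 0 ppm, 194, 236 and 182 at 0.1 ppm, 214, 197 and 212 at 0.4 ppm, and 217, 219 and 206 at 2.25 ppm, with overlap of all groups. Cbs, which in brain is known from astrocytes, had 325, 302 and 376 normalized reads at 0 ppm and 335 to 469 on the supplemented diets. Its log2 change at 0 ppm was -0.19 (SE 0.09, limma adjusted p = 0.909), on the other side of 0 from that in liver. Mat2a had 775 to 866 normalized reads at 0 ppm and 713 to 920 on the supplemented diets, and Mtr 159 to 166 and 148 to 178. Cth had 33.1 to 39.5 and 31.1 to 51.5, and Gnmt 10.5 to 19.9 and 8.46 to 30.2. Mat1a, Bhmt, Bhmt2 and Nnmt lay between 0.705 and 11 normalized reads in every brain library, near the 1.75 to 2.34 that 3 reads represent there. The largest brain change of a member was that of Mat1a at 2.25 against 0.1 ppm, -1.65 (SE 0.44, limma adjusted p = 0.124), which rests on 1 to 2 reads per library at 2.25 ppm and 5 to 15 at 0.1 ppm. The 6 hepatocyte markers were also measured in these brain libraries, and limma called none of them, with 2 at an unadjusted p under 0.05 at 0 ppm against the supplemented diets (Alb and Cps1) and 3 at 2.25 against 0.1 ppm (Alb, Tat and Ttr). At 2.25 against 0.1 ppm their median log2 change was -0.86, with a range of -4.07 to -0.63, and at 0 ppm against the supplemented diets it was 0.88, with a range of -0.43 to 2.81, where Mat1a had 0.90 (SE 0.36, limma adjusted p = 0.878). Alb, the albumin gene, had 57.6 to 71.4 normalized reads at 0 ppm, 43.9 to 57.3 at 0.1 ppm, 0 to 47.5 at 0.4 ppm and 0 to 10.6 at 2.25 ppm. Cps1, a urea cycle enzyme, averaged 12.2 ± 2.52, 8.79 ± 3.09, 3.91 ± 2.32 and 5.24 ± 1.44 normalized reads (SD, n = 3 each) in the same order of diets. The summed level of the list was 2364 to 5311 normalized reads at 0 ppm and 1971 to 10310 on the supplemented diets, most of it Ttr, which the choroid plexus also makes, and Hnf4a was at 0 in all 3 libraries at 2.25 ppm. The part of these transcripts in the brain values of Mat1a and the other scarce enzymes was not tested.

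The change at 0 ppm against the supplemented diets differed between liver and brain for 3 members, in a fit over all 24 libraries in which 1.98% of 21889 genes differed. The liver change minus the brain change was -0.90 for Ahcy (SE 0.14, limma adjusted p = 0.00155) and 0.67 for Cbs (SE 0.13, 0.00795). It was -1.83 for Mat1a (SE 0.34, limma adjusted p = 0.00655), of which the brain side rests on 1 to 15 reads per library and runs beside the hepatocyte markers given above for brain. For Cth the difference was -0.58 (SE 0.19, limma adjusted p = 0.132), for Bhmt -1.0 (SE 0.43, 0.287), for Gnmt -0.10 (SE 0.28, 0.933) and for Bhmt2 0.20 (SE 0.34, 0.871), so that a difference between tissues was not shown for these called liver genes. For 2.25 against 0.1 ppm no member differed between liver and brain by limma or edgeR, while 2.69% of all genes differed by limma. An unadjusted p under 0.05, for which the share of all genes is not given here, was reached by 3 members. Of these, Mat1a had an adjusted p of 0.0583, and from 0.0256 to 0.0459 without brain 0 ppm a, 0.1 ppm a, 0.4 ppm a or 0.4 ppm c, and Bhmt had 0.0318 without brain 0 ppm c.

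Levels of different genes were compared as normalized reads per kb of merged exons. Merged exons cover every annotated transcript of a gene, so a level is too low where mainly a shorter transcript is expressed. Which transcripts were expressed was not tested. In liver, over 12 libraries, the order was Mat1a at 22156 ± 6006 (SD), Gnmt at 18787 ± 3174, Ahcy at 10210 ± 2959, Bhmt at 9863 ± 3203, Cth at 2843 ± 810, Bhmt2 at 2235 ± 412, Nnmt at 1635 ± 652, Cbs at 766 ± 148, Mat2a at 153 ± 25.8 and Mtr at 16.4 ± 1.46. Each neighbour overlapped the next in range except Bhmt and Cth, Cbs and Mat2a, and Mat2a and Mtr. In brain the order began with Mat2a at 186 ± 13.9 per kb, Ahcy at 73.3 ± 6.11, Cbs at 49.3 ± 5.7 and Mtr at 19.4 ± 0.983, followed by Gnmt at 15.6 ± 6.07 and Cth at 14.5 ± 2.36. Mtr, Gnmt and Cth overlapped in range there. Between the tissues 8 members were higher in liver (35.7% of genes were) and 2 were lower, with 91.2% of genes called either way by limma. The lower ones were Mat2a at -0.29 (SE 0.07, adjusted p = 0.000369) and Mtr at -0.24 (SE 0.05, 0.000215) on the log2 scale, and that of Mtr turned to 0.34 (SE 0.05) under quantile normalization. The median over all genes was -0.54, lower than both. The comparison rests on the authors' scaling being shared by both tissues, so whether these 2 are lower in liver depends on it.

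**Figure D4:**
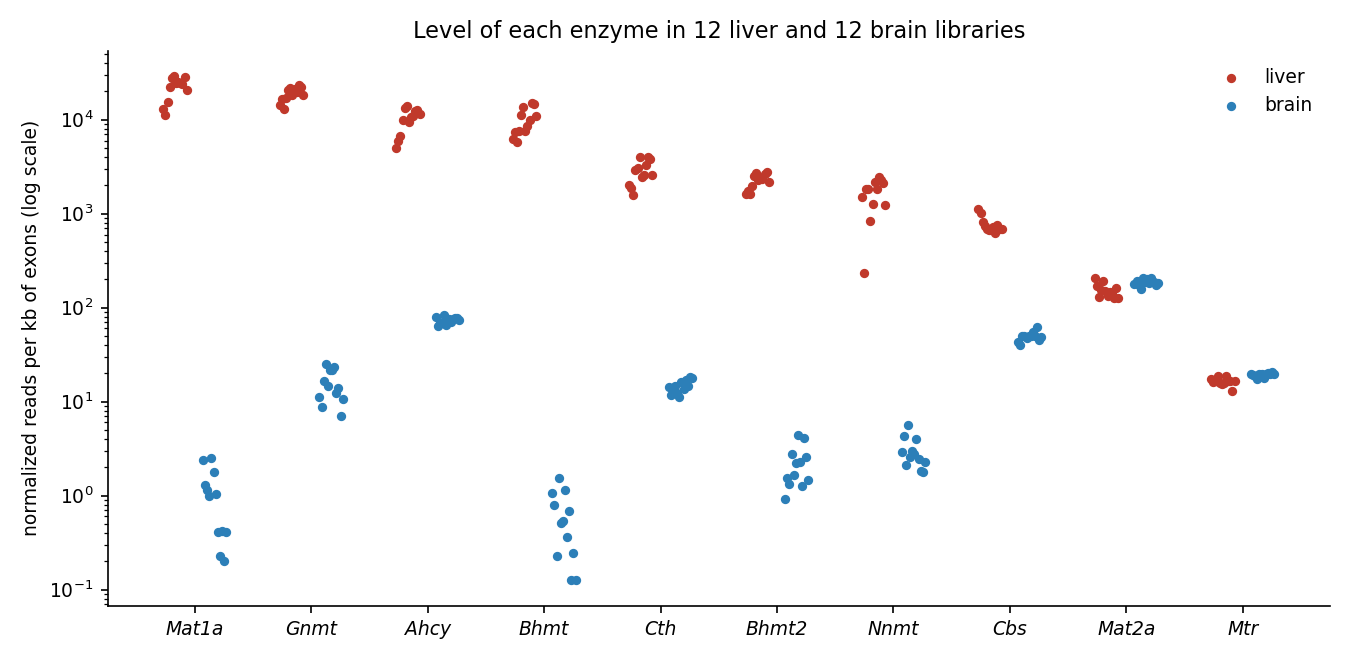
Normalized reads per kb of merged exons (log scale) of each enzyme in 12 liver and 12 brain libraries, each point a library. Mat1a, Gnmt, Ahcy and Bhmt stand highest in liver, while Mat2a (153 and 186 per kb in liver and brain) and Mtr (16.4 and 19.4 per kb) each stand at a similar level in the 2 tissues.

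Around these enzymes, 55 measured genes of 8 neighbouring lists, also chosen with earlier results of these data known, were followed in liver. At 0 ppm against the supplemented diets 18 were lower and 4 higher, with a median log2 change of -0.17 against 0.00 over all genes, of which 4.41% were lower and 2.20% higher. Without 0 ppm library a 22 called genes became 9, with no mean-variance trend 7, and with the clock components 0. Among regulators of SAM and S-adenosylhomocysteine, 1 of 5 was lower, Ahcyl1, a relative of Ahcy, at -0.33 (SE 0.06, limma adjusted p = 0.00683). Of SAM-using methyltransferases 3 of 7 were lower and 1 was higher. As3mt (-0.40), which methylates arsenic, Gamt (-0.33), which makes creatine, and Hnmt (-0.29), which methylates histamine, were the lower ones, at limma adjusted p from 0.0149 to 0.0474. Of betaine and choline oxidation 4 of 7 were lower, of which Sardh, sarcosine dehydrogenase, which returns the product of Gnmt to glycine, stood at -0.53 (SE 0.08, limma adjusted p = 0.00198). Dmgdh (-0.37), Pipox (-0.33) and Aldh7a1 (-0.25) were the other 3, at adjusted p from 0.00732 to 0.0477. The folate arm had 1 of 7 lower, Mthfd1, a trifunctional folate enzyme, at -0.23 (SE 0.06, limma adjusted p = 0.0444).

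Downstream of Cth, cysteine and sulfide use had 3 of 10 genes higher and 3 lower. Csad, which leads cysteine sulfinate to taurine, was higher by 0.87 (SE 0.21, limma adjusted p = 0.027) and Gclc, the catalytic subunit that starts glutathione synthesis, by 0.66 (SE 0.15, 0.0164). Got1, a cytosolic transaminase that also acts on cysteine sulfinate, was at -1.37 (SE 0.17, limma adjusted p = 0.000491), with 2984 ± 78 normalized reads (SD, n = 3) at 0 ppm and 8315 ± 2963 (n = 9) on the supplemented diets. Cdo1, the dioxygenase that makes cysteine sulfinate, was at -0.37 (SE 0.09, limma adjusted p = 0.0341), and Gss and Tst were the remaining 2. Methionine salvage and polyamine synthesis had 2 of 10 lower, Srm (-0.70, SE 0.16, limma adjusted p = 0.0205) and Odc1 (-0.44, SE 0.10, 0.0176), which make spermidine and putrescine. Of nicotinamide genes 1 of 5 was lower, Nampt, which returns nicotinamide to NAD, at -0.81 (SE 0.15, limma adjusted p = 0.00452). Of 4 genes on the selenium side 3 were lower, a check of the diets. Gpx1, a selenium-dependent peroxidase, had 10497 ± 1028 normalized reads at 0 ppm and 27683 ± 1314 on the supplemented diets, and Selenow and Selenop were the others.

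Several of these calls were weak. Gamt, Hnmt, Aldh7a1, Dmgdh, Mthfd1 and Cdo1 each lost theirs in 9 of the 12 fits that left out 1 liver library, and As3mt, Csad, Gclc, Srm and Odc1 without 0 ppm library a, all of these but Odc1 also without b. Ahcyl1, Sardh, Pipox, Got1, Nampt and the 3 selenium genes kept their calls in all 12.

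**Figure D5:**
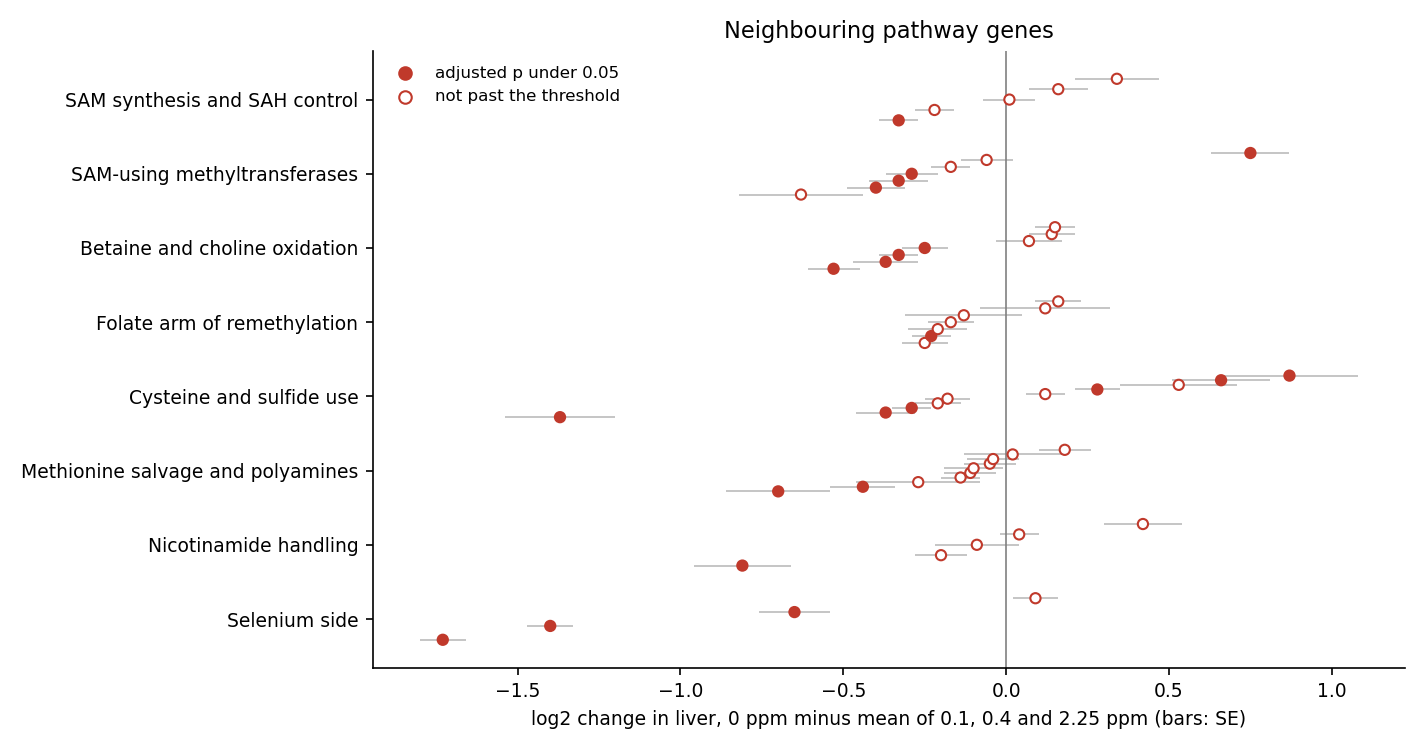
Log2 change at 0 ppm minus the mean of 0.1, 0.4 and 2.25 ppm in liver for the 55 measured genes of 8 neighbouring lists, each point a gene with its SE, filled where the test was passed. Filled points are on both sides of 0 for cysteine and sulfide use (3 and 3), and on the lower side for betaine and choline oxidation (4 of 7).

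At 2.25 against 0.1 ppm, where no member was called, 3 of the 55 neighbouring genes were higher and 3 lower in liver, where 7.85% of all genes were called, and this count of 6 was 2 with no mean-variance trend and 0 with the clock components. Shmt1 (0.35), which moves single-carbon units from serine to folate, and Naprt (0.30), which starts NAD synthesis from nicotinic acid, were among the higher ones, at limma adjusted p of 0.0267 and 0.0286, and lost their calls in 5 and 4 of 12 fits without a library. Got1 was at -1.26 (SE 0.21, limma adjusted p = 0.0031), Mat2b, the regulatory partner of Mat2a, at -0.44 (SE 0.10, 0.0152) and Chdh, which begins betaine synthesis, at -0.38 (SE 0.08, 0.00873). Mat2b lost its call in 3 of the 12 fits without a library. At 0.4 against 0.1 ppm, where 1.49% of all genes were called, Chdh alone of the 55 was (-0.34, SE 0.08, limma adjusted p = 0.0475), and not in 9 of the 12 fits without a library or with edgeR (0.055). In brain none of the 55 was called in any of the 5 comparisons.

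By Pearson correlation of log2(value + 1) over the 12 liver libraries, the named genes most like Ahcy, out of 9026 with a mean of at least 100 normalized reads, were Dbt (r = 0.995), Tk1 (0.978), Gpt (0.974), Ndrg2 (0.973) and Asl (0.972). Dbt is a subunit of the branched-chain ketoacid dehydrogenase, Gpt an alanine transaminase and Asl the urea cycle enzyme argininosuccinate lyase. Asl had 6272 ± 583 normalized reads (SD, n = 3) at 0 ppm and 16934 ± 2247 (n = 9) on the supplemented diets. Among the members, r with Ahcy was 0.94 for Bhmt2, 0.93 for Mat1a, 0.87 for Gnmt, 0.86 for Cth, 0.85 for Bhmt and -0.87 for Cbs. It was 0.33 for Nnmt, -0.32 for Mat2a and -0.33 for Mtr. Of the 9026, 43 had a higher r than Bhmt2, 54 than Mat1a, 185 than Gnmt, 211 than Cth and 239 than Bhmt. These libraries share diets and sequencing, and the values are descriptions.

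For some members reads could be divided with near-identical sequence. Of the distinct 50-base words in Ahcy transcripts 68.7% also occur in other annotated transcripts, mostly Gm4737, and of those of Bhmt 25.3%, mostly Gm5096, while Mat1a, Gnmt, Mtr, Cth and Nnmt share none. The table lists Gm4737 at 60.3 to 96.1 normalized reads at 0 ppm and 88.6 to 185 on the supplemented diets, and Gm5096 at 155 to 189 and 196 to 428. Both are far below the reads of Ahcy and Bhmt, whose values are uncertain to the extent that reads were split. Ahcy, Bhmt, Gnmt and Mat2a each overlap an annotated gene on the opposite strand, Gnmt over its whole length, and Cth overlaps Gm43314 on its own strand. How the authors' counting used strand is not given in the sources used here, and the part of these overlaps in the values was not tested.

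Markers of liver cells were set beside the result. Of 6 hepatocyte markers 1, Cps1, was lower at 0 ppm, and their summed level was 1045593 to 1362801 normalized reads at 0 ppm and 1448127 to 1878659 on the supplemented diets, without overlap. Most of this sum was Alb, which was not called, at means of 962716 at 0 ppm and 1277200 on the supplemented diets. Periportal markers had 2 of 5 lower (Ass1 and Sds) and sums of 74563 to 116588 and 93711 to 165647, and pericentral ones had 1 of 6 higher (Lgr5) and sums of 128010 to 172136 and 163285 to 238632. Cyp2e1, at means of 116305 and 151995, made up most of the pericentral sums. Endothelial markers had 2 of 5 lower (Flt1 and Stab2; sums of 3192 to 3403 and 3782 to 4387), stellate markers 2 of 5 lower (Reln and Rgs5; 4524 to 4928 and 5054 to 6330) and cholangiocyte markers 1 of 5 higher (Spp1; 1338 to 1915 and 710 to 1335). No Kupffer or blood marker was called, at sums of 6622 to 9671 and 7189 to 11723, and of 3253 to 5161 and 3584 to 4975. None of these liver markers was at 0, and their part in the change of the enzymes was not tested. Neuron markers separated the tissues, summing to 144 to 562 normalized reads per liver library, against 46593 to 57939 per brain library, while the hepatocyte marker Alb had 0 to 71.4 normalized reads in brain libraries, by diet as given above.

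Clock genes moved in the same liver comparison. Of 19, 10 were lower and 1 higher at 0 ppm, with a summed level of 11907 to 18859 normalized reads at 0 ppm and 20089 to 24925 on the supplemented diets. At 2.25 against 0.1 ppm 4 clock genes were higher and 5 lower, while no member was called. In a principal component analysis of the 19 over the 12 liver libraries, differences between diets made up 73.4% of the variance of component 1 and 85.5% of that of component 2. With both as covariates the log2 change at 0 ppm was -0.03 for Mat1a (SE 0.55) and 0.50 for Ahcy (SE 0.38), none of the 18945 genes was called, and Gpx1 had -1.16 (SE 0.36) and Selenow -1.49 (SE 0.34). When the tissues were collected and when the mice last ate is not in the labels, and neither can be told apart from diet here.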

How the data were processed

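RNA of 12 liver and 12 brain libraries (8 groups of 3) was prepared with TRIzol and the TruSeq Stranded Total RNA kit, per the labels' protocols. Tools listed, per the submitters' processing notes, are STAR 2.5.2b, RSEM 1.3.0, Trimmomatic 0.33, limma 3.34.5 and bcl2fastq 2.17, with the build mm10 and no role for each. The deposited table holds a signal, normalized reads per gene, which the authors made by dividing whole reads by 1 factor per library. All 525456 values came within 0.01 of whole reads when multiplied back, so 3 reads are worth 3.12 to 5.32 units in a liver library and 1.75 to 2.34 in a brain library. The table holds 21894 genes, and 16 symbols occur more than once. Over the 24 pairs of libraries within groups, chi-square per gene (20 reads or more) was 4.01 to 56.5, so none was a repeat of another.

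Log2(value + 1) was tested with limma 3.58.1 in R 4.3.3, with a mean-variance trend, for genes reaching 1 in 3 or more libraries, in 1 fit per tissue and 1 fit of all 24 libraries for differences between tissues. Benjamini-Hochberg adjustment ran over every gene of a fit. Alternatives were a pseudocount of 0.1, no filter or one at 4, no trend, quantile normalization, edgeR 4.0.16 on the recovered reads with TMM, 2 principal components of 19 clock genes, only the 6 libraries compared, and each library left out. Replicate numbers are not carried by the columns, so libraries are not paired.

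The members and lists were chosen with earlier results of these data known. All members are described; of the 8 neighbouring lists, up to 4 called genes a list with the largest change are named for 0 ppm against the supplemented diets, 0.4 against 0.1 ppm and 2.25 against 0.1 ppm in liver, and the other comparisons are given as counts. Some genes that the rule would name are not reported here and enter the counts only. Of 56 listed genes 55 were measured. Gss and Tst were named beyond this rule after their values were seen. Genes most like Ahcy are the 5 with the highest correlation. Gene positions and exon lengths are from GENCODE vM21 and promoters from RefSeq.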

Additional observations from a re-analysis of the deposited data

Results flagged for a closer look

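For 3 enzymes the change at 0 ppm against the supplemented diets differed between liver and brain in a test of the difference itself (limma over all 24 libraries). The difference, liver change minus brain change on the log2 scale, was -0.90 for Ahcy, from changes of -0.99 in liver and -0.08 in brain. It was 0.67 for Cbs, from 0.49 in liver and -0.19 in brain. It was -1.83 for Mat1a, from -0.94 in liver and 0.90 in brain, where brain libraries held 1 to 15 reads of Mat1a and the hepatocyte marker Alb had 57.6 to 71.4 normalized reads at 0 ppm and 0 to 57.3 on the supplemented diets. The part of such transcripts in the brain change was not tested. All 3 stayed called in each of the 24 fits that left out 1 library, at -1.0 to -0.79 for Ahcy, 0.58 to 0.80 for Cbs and -2.01 to -1.55 for Mat1a.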

How the results depend on the processing

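No paired analysis was possible because the columns carry no replicate number that could link libraries across diets or tissues. Over 2860 combinations of a member's result and an alternative, 2777 kept the side of the threshold and, where called, the direction, 68 lost a call, 6 gained one and 9 called values reversed. Most of the 2860 start from a result that was not called, as all in brain were. The 68 and the 9 fall on called results only. Changes of members that were never called took the other sign in 78 cases. For members called in liver at 0 against 0.1 ppm (7), the number called was 3 with only the 6 libraries compared, 2 with no mean-variance trend, 0 with 2 clock components as covariates, and 3 to 7 with 1 library left out. For any difference among diets (7) it was 2 without the trend and 0 with the clock components, and for 0 ppm against the supplemented diets (7) it was 0 with the clock components. For the liver minus brain difference at 2.25 against 0.1 ppm the count ran from 0 to 1 with 1 library left out. With the clock components the log2 change at 0 ppm against the supplemented diets reversed to 0.20 for Gnmt, 0.50 for Ahcy, 0.88 for Bhmt, 0.29 for Bhmt2, -0.09 for Cbs and 0.05 for Cth, with SE of 0.34 to 0.59, and against 0.1 ppm to 0.15 for Bhmt and -0.04 for Cbs. It also reversed to 0.31 for Gamt, 0.05 for Hnmt, 0.28 for Dmgdh, 0.34 for Sardh, 0.19 for Mthfd1, -0.44 for Gclc, 0.70 for Srm, 0.12 for Odc1 and 0.54 for Nampt. Differences between diets made up 73.4% and 85.5% of the variance of these 2 components in liver. The fit with them therefore cannot separate diet from clock, and its signs are given as descriptions. In that fit Gpx1 and Selenow, at -1.16 and -1.49, were not called either. Over all liver genes, the numbers called for 0 ppm against the supplemented diets, 0 against 0.1, 0.4 against 0.1, 2.25 against 0.1 ppm and any difference were 1252, 1161, 282, 1487 and 2056 as reported, 488, 404, 41, 751 and 583 with no trend, and 0, 0, 6, 0 and 37 with the clock components. With only the 6 libraries compared they were 428 for 0 against 0.1 ppm and 623 for 0.4 against 0.1 ppm. For 2.25 against 0.1 ppm in brain 92 were called, 12 with no trend, 31 with the clock components and 0 with the 6 libraries, and the other brain counts were 6 or fewer as reported. For the difference between tissues at 0 ppm the count was 433, against 287 under quantile normalization and 256 with no trend. Chdh, the 1 neighbouring gene called at 0.4 against 0.1 ppm, was joined by others to make 3 with the 6 libraries. The causes were not tested. The level of Mtr in liver against brain reversed to 0.34 under quantile normalization. In brain, depth limits Mat1a, Bhmt, Bhmt2 and Nnmt, which lay near the level of 3 reads.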
